A study of Rattus norvegicus with 6 samples.

Results

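The SLC25 family is the large group of solute carriers that sit mainly in the inner mitochondrial membrane and were followed here in rat neural stem cells (NSCs) after knockdown of Derlin-1 (Derl1), a membrane protein of the endoplasmic reticulum. Members were chosen by gene symbol, as every row whose symbol begins with Slc25a and a number, with Ucp2 and Ucp3 added, because the uncoupling proteins belong to the same family. This gave 42 of the 17315 genes in the tables. The family was singled out with earlier results of these data known, and Slc25a53 had already been noticed for its low values after knockdown, so its difference between the groups is given as a description and it is left out of the counts of members that passed a p threshold in that comparison, except where a count is said to include it.

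The cells were HCN cells, a cloned line of NSCs from the adult rat hippocampus. Of the 6 samples, 3 had received a control siRNA duplex (siControl 1, 2 and 3) and 3 a duplex against Derl1 (siDerl1 1, 2 and 3). After transfection every sample was kept in proliferation medium with N2 supplement and bFGF. Then followed 2 days in medium containing BMP4 and bFGF, which is used to induce quiescence in these cells, so BMP4 was common to both groups. The study reported a higher share of proliferating cells after Derl1 knockdown than in the control in such medium. The model is limited to 1 cell line and 1 duplex per group, and the labels do not say whether the numbered samples came from separate cultures, so that p-values measure the spread between these samples, which may be technical. Values are TPM, a transcript level corrected for length and scaled to a common total in every sample, and read depth is unknown.

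SLC25 carriers share a fold built from repeated membrane-spanning segments and move metabolites, nucleotides and cofactors across the inner membrane, which is otherwise closed to them. Through them ADP and phosphate reach ATP synthase, ATP leaves the matrix, and citrate, glutamate, iron, folate and glutathione pass between the compartments. The carriers are encoded in the nucleus, made in the cytosol and inserted by a dedicated import route. Neural stem cells change their mitochondrial metabolism as they pass between proliferation, quiescence and differentiation, which is the setting of this culture system.

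Promoter sequences are shown for Slc25a53, the carrier with the lowest siDerl1 to siControl ratio, and for Slc25a4 and Slc25a5, the adenine nucleotide translocases whose ratio did not overlap between the groups. They are RefSeq windows of 300 bases on GRCr8, from 250 bases before to 50 bases after the annotated start, whereas the reads had been mapped to rn6. The Slc25a53 window lies at chrX:105111887-105112186 on the minus strand, the Slc25a4 window at chr16:52805271-52805570 on the plus strand and the Slc25a5 window at chrX:120897366-120897665 on the plus strand. Capitals mark matches to the GC box GGGCGG or the CCAAT box on either strand.
Slc25a53: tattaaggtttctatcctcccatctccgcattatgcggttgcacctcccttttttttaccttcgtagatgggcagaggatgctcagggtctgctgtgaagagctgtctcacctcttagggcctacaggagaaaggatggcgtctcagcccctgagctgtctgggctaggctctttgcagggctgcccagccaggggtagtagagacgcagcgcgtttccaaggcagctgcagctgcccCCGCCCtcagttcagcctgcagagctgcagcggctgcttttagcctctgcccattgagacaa
Slc25a4: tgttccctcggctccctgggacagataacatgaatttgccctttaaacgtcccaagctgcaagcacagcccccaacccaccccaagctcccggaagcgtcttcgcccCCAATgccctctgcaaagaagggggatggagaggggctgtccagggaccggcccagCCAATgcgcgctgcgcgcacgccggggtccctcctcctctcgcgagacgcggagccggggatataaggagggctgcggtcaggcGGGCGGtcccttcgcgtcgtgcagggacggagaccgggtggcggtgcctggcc
Slc25a5: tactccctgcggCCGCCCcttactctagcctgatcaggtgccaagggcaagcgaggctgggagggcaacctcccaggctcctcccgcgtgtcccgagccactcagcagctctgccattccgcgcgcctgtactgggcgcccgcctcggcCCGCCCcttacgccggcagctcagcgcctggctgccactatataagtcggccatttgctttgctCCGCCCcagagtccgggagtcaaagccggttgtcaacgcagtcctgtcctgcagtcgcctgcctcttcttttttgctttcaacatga

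The windows differed in composition. That of Slc25a53 held 9 CpG dinucleotides at 57% GC with 1 GC box, that of Slc25a4 held 26 at 67.3% GC with 1 GC box and 2 CCAAT boxes, and that of Slc25a5 held 22 at 64% GC with 3 GC boxes. Windows were found for 36 of the 42 members, and these held a median of 17 CpG against 7 over all 33469 promoters in the table. GC boxes lay in 24 of the 36 windows and in 33.1% of all promoters, and CCAAT boxes in 19 of the 36 and in 37.5% of all. The TATA box TATAAA was met in 1 member, Slc25a38, and in 14.2% of all promoters. The STAT5 consensus TTCNNNGAA was met in 3 members, of which only Slc25a27 was expressed at a mean of at least 1 TPM, and in 8.87% of all promoters. These matches are letters in a window and not evidence of a bound factor.

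Of the 42 members, 35 had a mean of at least 1 TPM over the 6 samples and were tested with the 10331 genes at that level. Their levels spanned from the 2 members above 500 TPM through 6 between 100 and 500, 17 between 10 and 100 and 10 between 1 and 10 TPM. In bulk samples, fewer cells of a type and less RNA per cell cannot be told apart. The filter fell in a gap, with Slc25a45 just inside at a mean of 1.71 TPM and Slc25a34 just outside at 0.32 TPM. The 7 members under it were Slc25a34, Slc25a54, Ucp2, Slc25a47 and Slc25a21, each above 0 in some sample, and Slc25a41 and Ucp3, listed at 0 in all. Slc25a4 was above 98.5% and Slc25a3 above 98.3% of the genes tested. Levels of members that share sequence with close paralogs or processed copies, such as Slc25a5, are uncertain where reads were divided between them, as are those of the 16 members whose annotated loci overlap another coding gene.

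**Figure D1:**
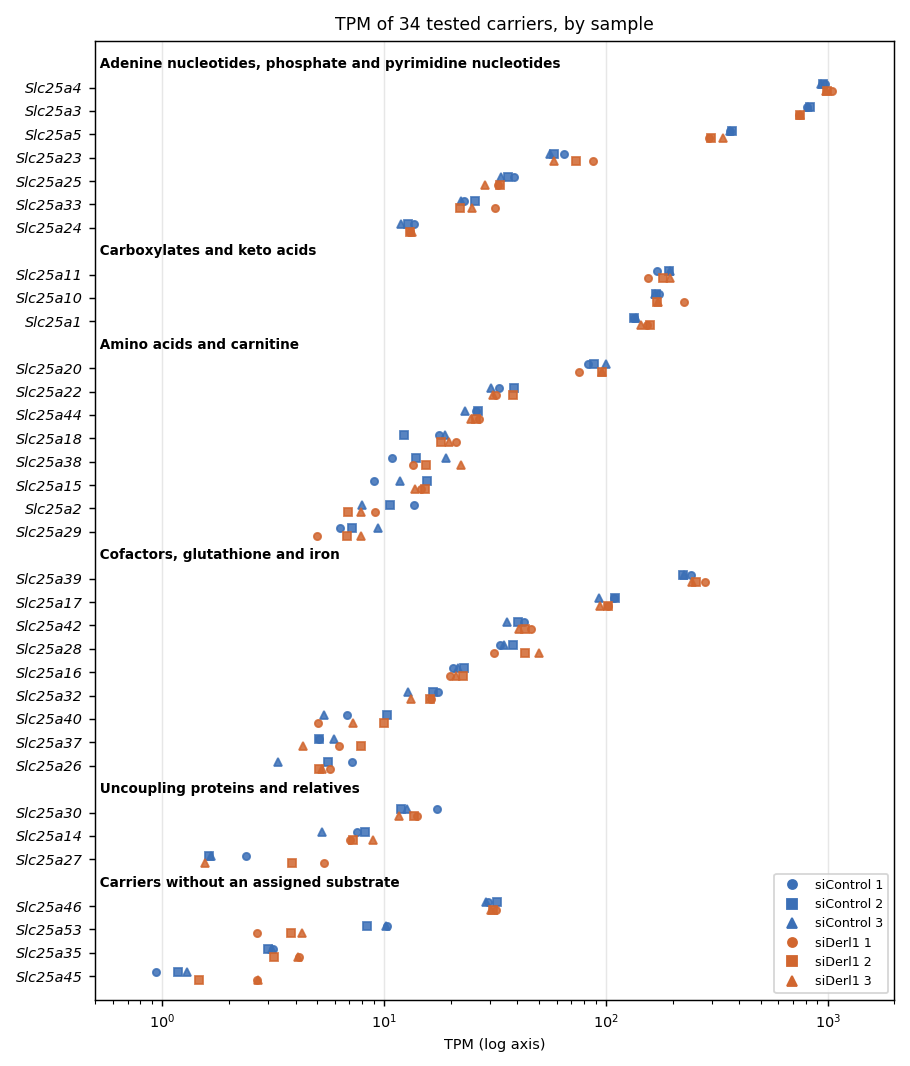
TPM (x axis, log scale) of 34 of the 35 tested carriers in each of the 6 samples, grouped by substrate; blue marks are siControl, orange marks siDerl1, and the shape gives the sample number. Slc25a4 and Slc25a3 stand above all other carriers in every sample, and Slc25a53 is the carrier whose orange marks lie farthest below its blue marks.

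The most abundant carriers were those that serve ATP synthesis. Slc25a4 (adenine nucleotide translocase ANT1), which exchanges ADP for ATP, was at 968.67, 957.09 and 935.13 TPM in siControl 1 to 3 and at 1041.61, 991.78 and 983.46 TPM in siDerl1 1 to 3. The siDerl1 samples were all above the siControl samples, and the log2 difference was 0.08 ± 0.05 (SE, n = 3 per group; limma adjusted p = 0.817). Slc25a3, the phosphate carrier, was at 810.74, 836.91 and 818.02 TPM in siControl and at 742.30, 753.47 and 747.15 TPM in siDerl1. All 3 siDerl1 samples lay below all 3 siControl samples, at 0.910 of the siControl mean. Slc25a5 (ANT2), the translocase isoform of dividing cells, was at 361.27, 370.89 and 363.84 TPM in siControl and at 291.72, 298.17 and 337.72 TPM in siDerl1, again without overlap and at 0.846 of the siControl mean.

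Together Slc25a4, Slc25a3 and Slc25a5 held 60.7% ± 0.164 (SD, n = 3) of the family's summed TPM in siControl and 58.6% ± 0.640 in siDerl1. The sum of both translocases was 1319 ± 17.3 TPM in siControl and 1315 ± 22.4 TPM in siDerl1 (SD, n = 3 per group), while the ratio within it did not overlap between the groups. Slc25a4 stood to Slc25a5 at 2.68, 2.58 and 2.57 in siControl 1 to 3 and at 3.57, 3.33 and 2.91 in siDerl1 1 to 3, so that every siDerl1 ratio was above every siControl ratio. This ratio was 1 of 9 ratios between related carriers that were computed, of which 3 did not overlap between groups, and it is given as a description because the pairs were picked with earlier results known.

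The calcium-regulated ATP-Mg/phosphate carriers, which set the adenine nucleotide content of the matrix, were present at lower levels. Slc25a23 was at 64.92, 58.67 and 56.16 TPM in siControl and at 87.74, 73.35 and 58.52 TPM in siDerl1, with siDerl1 3 inside the siControl range. Slc25a25 was at 38.55, 36.21 and 33.73 TPM in siControl and at 32.61, 33.32 and 28.49 TPM in siDerl1, so that only 33.73 against 33.32 TPM kept the groups apart, and they overlapped when samples were rescaled to a common median ratio. Slc25a23 stood to Slc25a25 at 1.68, 1.62 and 1.67 in siControl and at 2.69, 2.20 and 2.05 in siDerl1, without overlap. Slc25a24, the remaining expressed member of the subgroup, was at 12.8 ± 0.826 TPM in siControl and 13.2 ± 0.118 TPM in siDerl1 (SD, n = 3 per group). Slc25a33, a pyrimidine nucleotide carrier, ranged from 22.12 to 31.83 TPM with its highest value in siDerl1 1.

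Carboxylate carriers came next, with a summed level of 490 ± 10.6 TPM in siControl, close to the 485 ± 26.6 TPM of the cofactor carriers (SD, n = 3). Slc25a11, the oxoglutarate carrier of the malate-aspartate shuttle, was at 170.40, 193.41 and 193.87 TPM in siControl and at 155.86, 180.88 and 195.11 TPM in siDerl1, with sample 1 lowest in each group. Slc25a10, the dicarboxylate carrier, was at 173.81, 168.04 and 167.20 TPM in siControl and at 224.48, 169.64 and 172.88 TPM in siDerl1. Only siDerl1 1 stood apart for Slc25a10. Slc25a1, the citrate carrier that supplies cytosolic acetyl-CoA for lipid synthesis, was at 133.94, 133.70 and 136.57 TPM in siControl and at 154.08, 157.87 and 143.50 TPM in siDerl1, without overlap. The oxodicarboxylate carrier Slc25a21 was near 0, its highest value being 0.09 TPM. As a class these carriers held 13.9% ± 0.393 of the family's TPM in siControl and 14.7% ± 0.221 in siDerl1 (SD, n = 3 per group).

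Among carriers of cofactors, glutathione and iron, Slc25a39, a mitochondrial glutathione transporter, was the most abundant. It was at 242.44, 223.86 and 225.27 TPM in siControl and at 280.92, 254.18 and 244.44 TPM in siDerl1, and the siDerl1 samples were all higher. Its relative Slc25a40 was far lower, at 6.81, 10.35 and 5.35 TPM in siControl and at 5.05, 9.97 and 7.25 TPM in siDerl1, with sample 2 highest in each group. Slc25a17, which works in the peroxisomal membrane, was at 108.43, 109.98 and 93.38 TPM in siControl and at 102.78, 102.90 and 94.02 TPM in siDerl1. Slc25a42, a coenzyme A carrier, was at 42.71, 40.35 and 35.97 TPM in siControl and at 45.88, 43.32 and 40.67 TPM in siDerl1, and the groups overlapped for both. The iron importers were unequal in level. Slc25a28 (mitoferrin-2) was at 33.28, 38.38 and 34.95 TPM in siControl and at 31.41, 43.10 and 50.16 TPM in siDerl1, whereas Slc25a37 (mitoferrin-1), the form known from red cell precursors, ranged from 4.32 to 7.91 TPM. Slc25a16 and Slc25a32 (folate) lay between 12.84 and 22.95 TPM, and Slc25a26 (S-adenosylmethionine) between 3.32 and 7.22 TPM.

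Amino acid and carnitine carriers were led by Slc25a20, the carnitine-acylcarnitine carrier of fatty acid oxidation, at 83.59, 88.34 and 100.22 TPM in siControl and at 75.78, 96.53 and 96.38 TPM in siDerl1. Slc25a22, a glutamate carrier, was at 33.07, 38.41 and 30.42 TPM in siControl and at 31.87, 38.05 and 31.09 TPM in siDerl1. Slc25a44, a branched-chain amino acid carrier, was at 26.15, 26.54 and 23.31 TPM in siControl and at 26.89, 26.00 and 24.60 TPM in siDerl1. None of these 3 separated the groups. Slc25a18, the second glutamate carrier, ranged from 12.29 to 21.16 TPM. Of the ornithine carriers, Slc25a15 was at 9.05, 15.69 and 11.85 TPM in siControl and at 14.71, 15.26 and 13.82 TPM in siDerl1. Slc25a2 was at 13.69, 10.68 and 7.96 TPM in siControl and at 9.12, 6.91 and 7.87 TPM in siDerl1, and the groups overlapped for both. Slc25a15 stood to Slc25a2 at 0.661, 1.47 and 1.49 in siControl and at 1.61, 2.21 and 1.76 in siDerl1, the last of the 3 ratios that did not overlap.

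The uncoupling proteins and their relatives were the least abundant class, at 20.0 to 27.4 TPM in sum. The carriers without an assigned substrate summed to 39.9 to 45.3 TPM. Slc25a30 was at 17.44, 11.90 and 12.77 TPM in siControl and at 14.06, 13.71 and 11.73 TPM in siDerl1. Slc25a14, enriched in brain, was at 7.56, 8.24 and 5.26 TPM in siControl and at 7.05, 7.26 and 8.93 TPM in siDerl1. Slc25a27 was at 2.40, 1.63 and 1.66 TPM in siControl and at 5.35, 3.87 and 1.56 TPM in siDerl1, so that siDerl1 3 was the lowest of all 6 samples while siDerl1 1 and 2 were the highest. Ucp2 was at or below 0.29 TPM in every sample and Ucp3 was listed at 0 throughout.

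Slc25a53, whose substrate has not been assigned, was at 10.30, 8.36 and 10.24 TPM in siControl 1 to 3 and at 2.67, 3.82 and 4.27 TPM in siDerl1 1 to 3. Every siDerl1 sample was below every siControl sample. The mean was 9.63 ± 1.10 TPM in siControl and 3.59 ± 0.825 TPM in siDerl1 (SD, n = 3 per group), a ratio of 0.372 and a log2(TPM + 1) difference of -1.22, which ranged from -1.33 to -1.07 when single samples were left out. Within numbered pairs the log2(TPM + 1) difference was -1.62, -0.96 and -1.09. Derl1 itself, the knockdown target, was at 121.59, 131.92 and 127.64 TPM in siControl and at 44.86, 70.81 and 73.98 TPM in siDerl1. In the RefSeq annotation the Slc25a53 locus overlaps the coding gene Zcchc18, which was not analysed here, and how reads in the overlap were assigned was not tested.

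Among the other carriers without an assigned substrate, Slc25a46, an outer membrane protein linked to mitochondrial fusion and fission, was at 29.33, 32.29 and 28.78 TPM in siControl and at 31.87, 31.10 and 30.54 TPM in siDerl1. Slc25a35 was at 3.15, 2.99 and 3.12 TPM in siControl and at 4.13, 3.21 and 4.09 TPM in siDerl1, all of the latter higher. Slc25a45 was at 0.94, 1.18 and 1.3 TPM in siControl and at 2.68, 1.47 and 2.71 TPM in siDerl1, also all higher but close to the filter, so that few reads may stand behind each value.

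**Figure D2:**
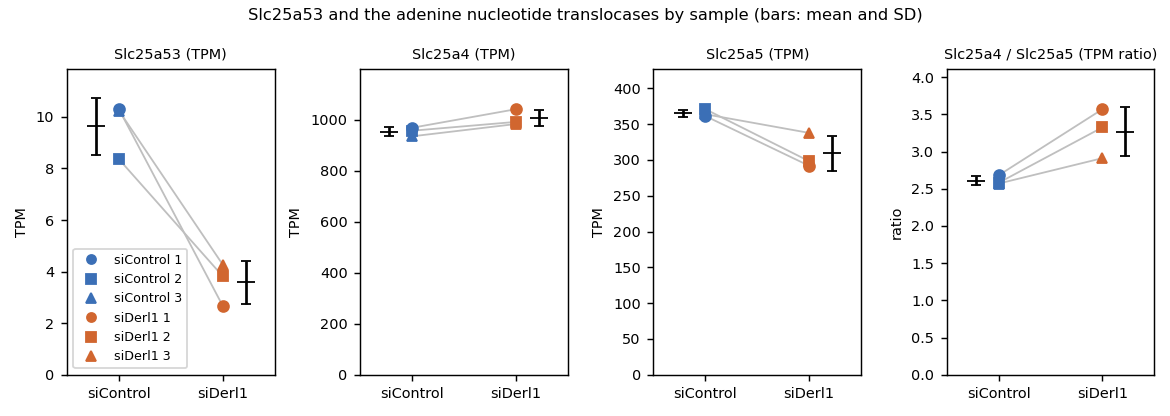
TPM of Slc25a53, Slc25a4 and Slc25a5 and the TPM ratio of Slc25a4 to Slc25a5 (y axes from 0) in the 3 siControl (blue) and 3 siDerl1 (orange) samples; grey lines join samples with the same number, and black bars give the mean and SD of each group. No siDerl1 value overlaps a siControl value in any panel, and the ratio lies between 2.57 and 2.68 in siControl and between 2.91 and 3.57 in siDerl1.

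To ask which carriers differed after Derl1 knockdown, limma was fitted to log2(TPM + 1) over all 10331 genes with a mean of at least 1 TPM, and p-values were adjusted over all of them by the Benjamini-Hochberg method. At an adjusted p under 0.05 no member passed, nor did any gene at all (0%). Leaving aside Slc25a53, an unadjusted p under 0.05 was met by 5 of 34 members (14.7%), 3 higher and 2 lower, against 6.7% of all genes tested. It was met by 2 of the 34 without siControl 2, without siDerl1 2 or with no intensity trend, where 4.13%, 4.18% and 6.78% of all genes met it. Without siControl 1 or siDerl1 1 it was met by 3 of the 34 (7.52% and 7.79% of all genes). By the limits of the study, a ratio of mean TPM above 1.5 or below 0.8, joined here with an unadjusted p under 0.05, 1 of the 34 members passed (2.94%), Slc25a45 upward, against 2.21% of all genes, a share close to that background. When single samples were left out, Slc25a45 passed only without siDerl1 2. Groups did not overlap for 8 of the 34 members (23.5%), against 13.6% of all genes tested. With Slc25a53 added, there were 9. Of these, Slc25a4, Slc25a1, Slc25a39, Slc25a45 and Slc25a35 were higher and Slc25a53, Slc25a5, Slc25a3 and Slc25a25 lower in siDerl1.

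Among the 5 members with an unadjusted p under 0.05, the log2(TPM + 1) difference was -0.24 ± 0.068 for Slc25a5 (SE, n = 3 per group; limma adjusted p = 0.704) and -0.14 ± 0.046 for Slc25a3 (adjusted p = 0.704). It was 0.17 ± 0.060 for Slc25a1 (adjusted p = 0.704) and 0.17 ± 0.071 for Slc25a39 (adjusted p = 0.736). Slc25a45 had the largest difference and the largest error of the 5, at 0.60 ± 0.246 (adjusted p = 0.736). For Slc25a5 the numbered pairs gave -0.31, -0.31 and -0.11, and for Slc25a1 they gave 0.20, 0.24 and 0.07, so that pair 3 showed the smallest difference for both.

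With the sample number as a replicate block, which pairs siControl 1 with siDerl1 1 and so on, none of the 34 members other than Slc25a53 reached an adjusted p under 0.05 in limma, against 0.552% of all genes. At an unadjusted p under 0.05 the paired fit gave 10 of the 34 members (29.4%), 6 higher and 4 lower, against 15.7% of all genes. The members gained were Slc25a23, Slc25a18 and Slc25a27 upward and Slc25a25 and Slc25a2 downward. Blocked adjusted p-values of the 5 members above ran from 0.0935 for Slc25a5 to 0.282 for Slc25a45.

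Over all 35 tested members, 20 were higher and 15 lower in siDerl1 (57.1% higher, against 45.2% of all genes tested), with a median log2 difference of 0.04 against -0.02 for all genes. The median was -0.0037 without siControl 3, and within pairs 1, 2 and 3 it was -0.05, -0.02 and 0.06. In pairs 1, 2 and 3, 16, 16 and 23 members were higher, and 10 were higher and 8 lower in all pairs. The summed TPM of the family was 3528 ± 45.6 in siControl and 3522 ± 46.2 in siDerl1 (SD, n = 3 per group), or 0.348% to 0.358% of all transcripts per sample. Precision followed abundance. The median SE was 0.07 for the 8 members at 100 TPM or more and 0.21 for the 10 members under 10 TPM. The 95% interval of the difference lay within 0.5 of 0 on the log2 scale for 19 members and within 1 for 32.

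**Figure D3:**
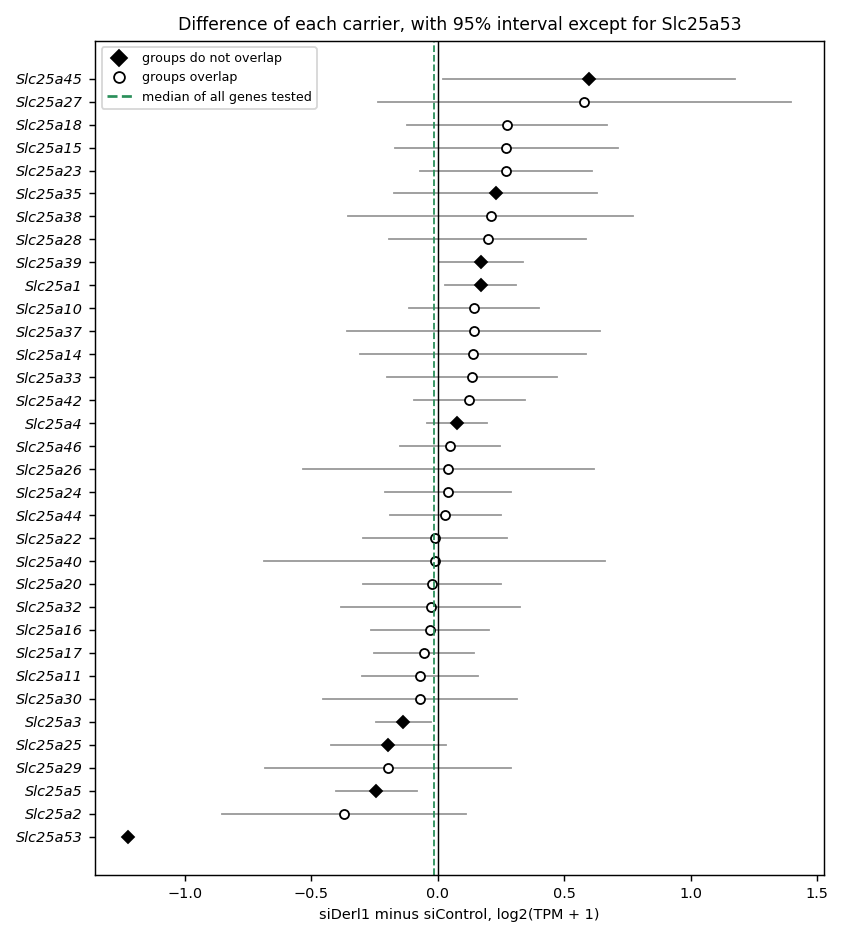
Difference in log2(TPM + 1), siDerl1 minus siControl (x axis), for 34 of the 35 tested carriers in order of size; lines are 95% intervals from limma, not drawn for Slc25a53, which was picked for its low siDerl1 values. Filled diamonds mark the 9 carriers whose groups do not overlap, and the dashed line is the median of all genes at -0.02.

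Sample numbers carried differences of their own. In a limma F test for sample number with siRNA group in the model, Slc25a38 was the 1 member with an adjusted p under 0.05 (adjusted p = 0.0221), against 10.6% of all genes tested. Slc25a38, which brings glycine into mitochondria for haem synthesis, was at 10.88, 13.99 and 19.05 TPM in siControl and at 13.49, 15.42 and 22.17 TPM in siDerl1. Sample 1 was lowest and sample 3 highest in each group. The call was lost without siControl 3 (adjusted p = 0.129), without siDerl1 3 (0.158), with no filter on low values (0.0754), with no intensity trend (0.0551) and without siRNA group in the model (0.0742). An unadjusted p under 0.05 was met by 8 members (22.9%), against 25.5% of all genes, a share close to that background.

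The other 7 were Slc25a11, Slc25a23, Slc25a20, Slc25a40, Slc25a22, Slc25a29 and Slc25a28. Slc25a29, a carrier of basic amino acids, was at 6.34, 7.19 and 9.40 TPM in siControl and at 4.99, 6.81 and 7.86 TPM in siDerl1. Both number 1 samples were below all others for Slc25a11, Slc25a20, Slc25a28, Slc25a16, Slc25a38 and Slc25a29, and above all others for Slc25a10, Slc25a30 and Slc25a26. These were 17.1% and 8.57% of the tested members, against 17% and 15.7% of all genes tested. Of the 10 neural stem cell markers, 7 had an adjusted p under 0.05 for sample number, against 10.6% of all genes tested. In number 1, 5 of the list were higher and 5 lower, where 48.7% of all genes were higher. Vim was lowest in number 1, at 3008 TPM in siControl and 3386 TPM in siDerl1, while the other markers summed to their highest level there, at 1131 and 1194 TPM. The part of these differences in the carriers' values was not tested.

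**Figure D4:**
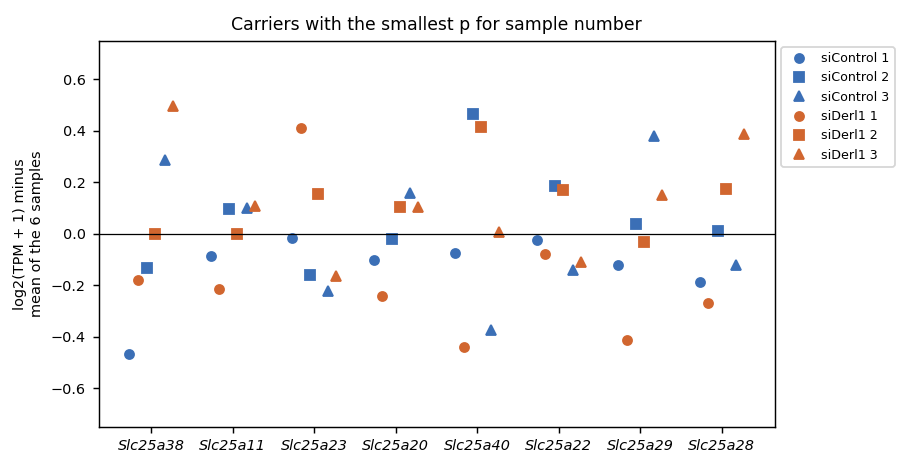
Log2(TPM + 1) minus the mean of the 6 samples (y axis) for the 8 carriers with the smallest p for sample number, by siRNA group (colour) and number (shape). For Slc25a38, Slc25a11, Slc25a20, Slc25a29 and Slc25a28 both circles, the number 1 samples, lie below all other marks.

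Genes that work beside the carriers were read from lists drawn up by function. The first list was the machinery that brings carriers to the inner membrane (the small TIM chaperones, the TIM22 complex and outer membrane receptors). Of its 17 genes, 13 were tested, of which 2 were higher and 11 lower, where 45.2% of all genes were higher. Their median log2 difference was -0.04. None had an unadjusted p under 0.05, against 6.7% of all genes, and the adjusted p-values from limma ran from 0.828 to 0.988. With the replicate block 1 gene, Timm13, had an unadjusted p under 0.05, against 15.7% of all genes. The smallest p belonged to Timm13, an intermembrane chaperone, at 241 ± 32.2 TPM in siControl and 264 ± 9.73 TPM in siDerl1. It was followed by Agk, a TIM22 subunit, at 26.8 ± 3.33 and 24.1 ± 2.24 TPM, and by Timm10b, a small TIM protein, at 61.0 ± 3.22 and 56.4 ± 8.16 TPM (SD, n = 3 per group). The groups overlapped for all 3.

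Other mitochondrial transport proteins, such as pyruvate carriers, porins, sideroflexins and the calcium uniporter, gave 23 tested genes of 26 listed. Of these, 9 were higher and 14 lower, where 45.2% of all genes were higher, and the median of the list was -0.03. An unadjusted p under 0.05 was met by 1 of the 23, against 6.7% of all genes. This was Sfxn2, a sideroflexin, at 0.92, 2.06 and 1.64 TPM in siControl and at 2.62, 2.77 and 2.96 TPM in siDerl1 (log2 difference 0.60 ± 0.234 SE, limma adjusted p = 0.713). Its values lay close to the filter of 1 TPM, so that few reads may stand behind each. Sfxn3, of the same family, was at 39.2 ± 3.35 and 32.7 ± 3.73 TPM, and Mtch1, an outer membrane relative of the carriers, was at 245 ± 9.98 and 266 ± 3.30 TPM (SD, n = 3 per group). Both had an unadjusted p under 0.05 only with the replicate block, where 3 genes of the list did against 15.7% of all genes. Groups did not overlap for 5 genes of the list, these 3 and the porins Vdac2 and Vdac3, against 13.6% of all genes.

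The samples were checked against marker lists. Neural stem cell markers including Sox2, Nes, Vim and Gfap were present in all samples. Gfap was at 47.01, 27.74 and 28.88 TPM in siControl and at 66.28, 47.51 and 45.32 TPM in siDerl1 (n = 3 per group; limma adjusted p = 0.704, and 0.0219 with the replicate block, under which 0 genes passed once the intensity trend was left out). Nes was at 125 ± 12.2 and 104 ± 6.22 TPM (SD), without overlap. Among microglial markers Cx3cr1, Tyrobp and C1qa were at 0 in all samples and the list summed to 5.01 to 9.36 TPM in siControl and 5.80 to 7.96 TPM in siDerl1. Vascular markers Cdh5, Cldn5 and Rgs5 were at 0 and the list summed to at most 2.01 TPM. Neuron markers summed to 152 to 176 TPM in siControl and 145 to 171 TPM in siDerl1. Among them Tubb3 was at 58.81, 74.92 and 70.43 TPM in siControl and at 83.16, 76.32 and 76.25 TPM in siDerl1, without overlap and higher in siDerl1. Dcx was at 9.78 ± 1.08 and 7.04 ± 0.627 TPM and Syt1 at 49.8 ± 3.40 and 39.5 ± 6.25 TPM (SD, n = 3 per group), both lower in siDerl1 without overlap and both with a limma adjusted p of 0.704. The part of these differences in the carriers' values was not tested. Oligodendrocyte lineage markers were high, at 1740 to 2006 TPM in siControl and 1698 to 2217 TPM in siDerl1, with Mog and Mobp at 0.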

How the data were processed

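Poly(A) RNA of the 6 samples was sequenced from strand-specific libraries on a HiSeq X. Per the labels and the study's methods, reads were trimmed by the authors (Trimmomatic 0.39), aligned to the rn6 genome (STAR 2.7.3a) and quantified (RSEM 1.3.2). The deposited values are TPM per gene, rounded and summing to the same total in each sample, so depth is unknown. The strand setting of RSEM is not given in the sources used here.

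Genes with a mean of at least 1 TPM were tested on log2(TPM + 1) with limma 3.58.1 in R 4.3.3 (lmFit, eBayes with an intensity trend, two-sided), siDerl1 against siControl, with Benjamini-Hochberg adjustment over all 10331 genes. Fold changes on this scale are understated for low genes. A moderated F test compared the 3 sample numbers with siRNA group in the model. The procedure was tested on simulated data. Deviations from group means correlated at 0.697, 0.353 and 0.507 within the same number and between -0.591 and 0.345 across numbers, over genes. Numbers were therefore treated as pairs in the replicate block, though the labels do not give pairs. For siControl 2 the values were 0.353 with siDerl1 2 and 0.345 with siDerl1 3, so these pairings are hardly told apart. Deviations within a group sum to 0, which favours negative values across numbers. Alternatives varied the pseudocount, filter, scaling, trend, block and samples.

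Members, lists and ratios were chosen with earlier results of these data known. Values in every sample are given for Slc25a53, members with an unadjusted p under 0.05, the 3 most abundant members of each substrate group, the 8 members with the smallest p for sample number, and others whose groups did not overlap or whose ratio is described. In each pathway list the 3 genes with the smallest p are named. Promoters are RefSeq sequences on GRCr8. For 1 tested member, values are not reported here.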

Additional observations from a re-analysis of the deposited data

How the results depend on the processing

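Errors were larger for carriers under 10 TPM, and read depth is unknown. Counts of members here include Slc25a53, which was picked for its difference in this comparison, so its passing is no evidence. No member had an adjusted p under 0.05 after knockdown under any alternative except the replicate block, which gave 1 (Slc25a53) and changed no other adjusted call. That call was lost when the block was combined with no intensity trend or with no filter on low values, combinations chosen after seeing the data, under which 0 and 2 of all genes passed. The count at an unadjusted p under 0.05 was 3 without the intensity trend (6.78% of all genes) and 11 with the block (15.7%), and 3 to 7 when single samples were left out (4.13% to 7.79%), with 3 without siControl 2 or siDerl1 2. The count past the fold limits was 1 at a mean of at least 5 TPM (1.76% of all genes), 4 with the block (4.23%) and 4 with the block and no trend (4.67%), and 1 to 3 when single samples were left out (1.9% to 3.38%), with 1 without siControl 1, siControl 2 or siDerl1 1. Groups without overlap numbered 8 after median-ratio scaling (13.2% of all genes), 7 at a mean of at least 5 TPM (13.9%) and 10 to 14 on leaving out single samples (20% to 27.6%), with 14 without siControl 3 (21.4%). The median difference of members was between -0.0037 (without siControl 3) and 0.091. For sample number, 0 members were called with no filter (4.61% of all genes), 0 with no trend (2.44%) and 0 without siRNA group in the model (5.15%), and 0 to 7 on leaving out single samples, with 7 without siControl 1 (16.2% of all genes), 2 without siDerl1 1 (14.6%) and 0 without siDerl1 3 (5.93%). Rescaling to median ratios turned the signs of Slc25a22 and Slc25a40, both near 0. Except where an alternative leaves fewer samples, the cause of each shift was not tested.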
